A study of Sus scrofa with 6 samples.

Results

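CCL2 and CXCL10, 2 of the 30477 genes in the deposited matrices, were followed through porcine midbrain-like organoids (pMLOs) by library, by day and by the cells that held their transcripts. Both were taken by symbol and had been selected on these same measurements: how many molecules of each were counted on each day, how far the replicates of day 28 lay apart, and which cells carried them. Their levels are therefore given as description, with no test. The pMLOs came from 1 porcine embryonic stem cell line, IVF_1_ pESC_FIW, and each age of organoid, day 11 (D11), day 28 (D28) or day 45 (D45), is represented by a pair of libraries, A and B. Per the methods all organoids shared neural induction with SB431542, Noggin, SHH-C24II and CHIR99021, followed by FGF8 and then by FGF8 with BDNF and ascorbic acid. Organoids kept beyond D11 were embedded in Matrigel and moved to a maturation medium with BDNF, GDNF, ascorbic acid, db-cAMP and DAPT on an orbital shaker, so that D28 and D45 differ from D11 in age, embedding and medium, whose effects cannot be told apart. The labels give no genotype that sets the days apart. A library is a suspension of cells from whole organoids, counted with a 10x Genomics method in which each captured transcript bears a unique molecular identifier (UMI).

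The labels call the cells midbrain dopaminergic neurons, but TH, the enzyme that makes the dopamine precursor, was detected in 3.89% to 11.9% of cells per library, NR4A2, a factor of that lineage, in 16.3% to 49.8%, and SLC6A3, the dopamine transporter, in 0.241% to 1.21%. Filtering left 13870 to 21553 cells per library, with 106805311 to 180034791 UMIs in all and a median of 2300.5 to 10757 UMIs per cell, lowest on D45. Any pair of libraries shared 54 to 111 cell barcodes, at most 0.637% of the smaller library.

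Chemokines are small secreted proteins that steer migrating leukocytes through receptors on those cells. CCL2 draws monocytes through the receptor CCR2, and its gene answers to NF-kappaB and AP-1 in stromal cells, glia and myeloid cells after injury or inflammatory stimulation. CXCL10 draws activated T cells through CXCR3 and takes its older name from its induction by interferon gamma. In the adult brain, astrocytes, microglia and cells of the vessel wall and meninges are known sources of both.

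In Sscrofa11.1 the CCL2 gene (ENSSSCG00000017723) lies on the minus strand of chromosome 12, from 40798109 to 40800013, and its 3 exons make a transcript of 744 bases with 300 coding bases. CXCL10 (ENSSSCG00000032474) lies on the minus strand of chromosome 8, from 71693641 to 71695948, with 4 exons, 1135 transcript bases and 315 coding bases. The 250 bases before each annotated start, read from the RefSeq sequence of that build on the gene's strand, are shown as a description. Sites farther from the start and other forms of the motifs below were not searched. Capitals mark matches to an interferon-response type motif (GAAANNGAA), a kappaB type motif (GGGANNTTC) and an AP-1 type motif (TGANTCA), which were searched on both strands.

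CCL2 upstream, chr12:40800014-40800263: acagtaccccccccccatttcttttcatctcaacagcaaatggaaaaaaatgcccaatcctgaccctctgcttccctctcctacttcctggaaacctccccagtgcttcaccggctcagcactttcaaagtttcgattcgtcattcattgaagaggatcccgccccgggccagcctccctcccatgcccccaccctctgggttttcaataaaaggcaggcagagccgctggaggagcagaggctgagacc
CXCL10 upstream, chr8:71695949-71696198: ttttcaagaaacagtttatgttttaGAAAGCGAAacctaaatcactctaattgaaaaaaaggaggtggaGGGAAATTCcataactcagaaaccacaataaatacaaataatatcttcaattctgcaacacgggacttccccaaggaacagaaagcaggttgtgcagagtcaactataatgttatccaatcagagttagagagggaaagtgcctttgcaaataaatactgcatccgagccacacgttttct

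The CXCL10 window held the interferon-response type letters from 225 to 217 bases before the start and the kappaB type letters from 181 to 173 bases before it, which do not overlap. Among the windows of 19569 protein-coding genes, 6.7% held the interferon-response type motif, 4.62% the kappaB type and 5.27% the AP-1 type. None of the 3 sets of letters occurred in the CCL2 window, which says only that those letters are not in these 250 bases.

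CCL2 was at or near 0 on D11, reached its highest level in replicate A of D28 and was present in both D45 libraries. Its UMI count was 0 and 1 in the D11 libraries (A and B), 4636 and 478 on D28, and 933 and 2231 on D45. As counts per 1000000 UMIs of the library (CPM) that was 0 and 0.0056 on D11, then 43.4 and 3.8 CPM at D28 and 7.88 and 17.6 CPM at D45. The D28 libraries lay on either side of both D45 libraries, so the days after D11 overlapped. The share of cells with at least 1 CCL2 UMI followed the same order, with 0 and 1 cell on D11, 6.26% (894 cells) and 0.721% (100 cells) on D28, and 0.826% (166 cells) and 2.49% (459 cells) on D45. With cells of under 1000 UMIs left out (1870 to 6623 per library) and the rest thinned to 1000 UMIs, the shares were 1.91% and 0.199% on D28 and 0.318% and 0.956% on D45, in the same order. The count of 0 in replicate A of D11 allows up to 0.019 CPM and 0.0204% of its cells with a UMI. It sets no limit on cells that express the gene too weakly to give a UMI.

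CXCL10 was far rarer and was seen almost entirely on D28. Its UMIs numbered 490 in replicate A and 145 in replicate B of D28, against 0 and 1 in the D11 pair and 0 and 2 in the D45 pair. This gave 4.59 and 1.15 CPM on D28, from 60 cells (0.42%) in replicate A and 31 cells (0.224%) in replicate B. On D45 the count of 0 in replicate A allows up to 0.0253 CPM. Both D28 libraries stood above all 4 others, which did not exceed 0.0158 CPM.

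**Figure D1:**
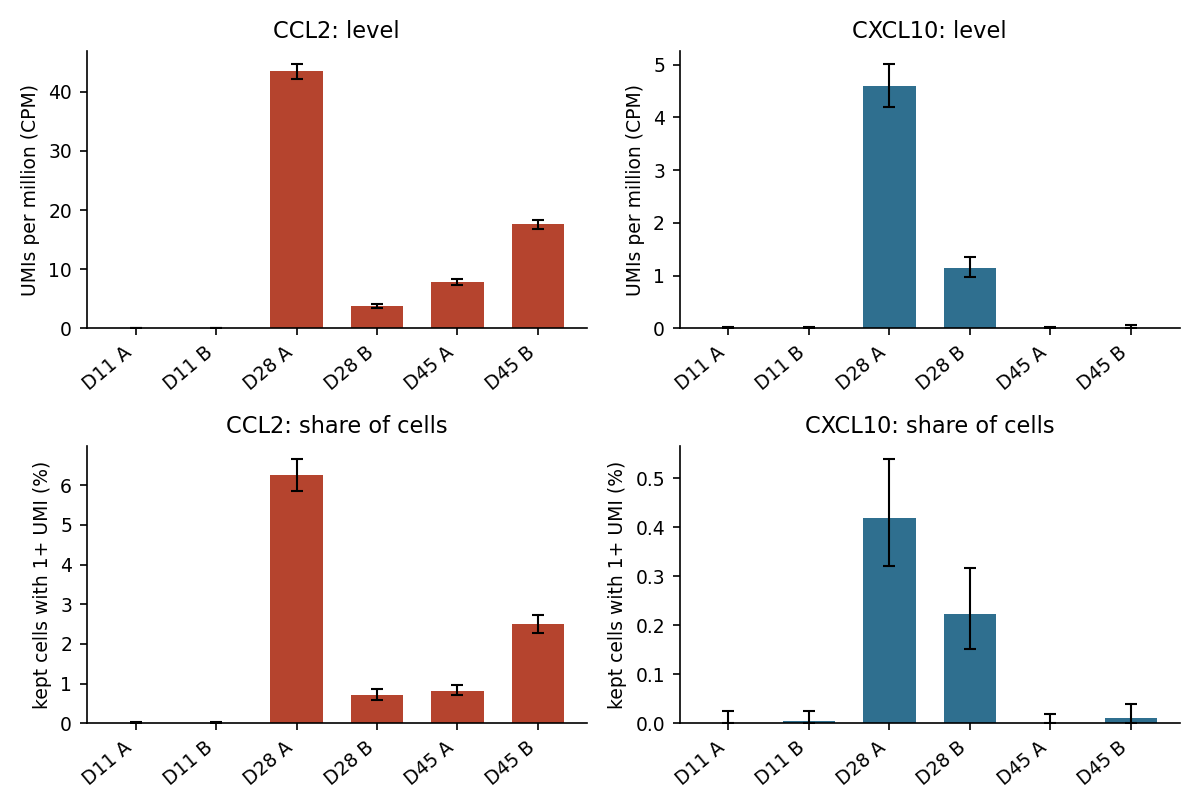
Level (CPM, top) and share of kept cells with at least 1 UMI (percent, bottom) of CCL2 (left) and CXCL10 (right) in each of the 6 libraries. Bars are 1 library each and error bars are exact 95% intervals (Poisson or Clopper-Pearson) that cover counting error only. CCL2 runs from 0 on D11 to 43.4 CPM in D28 A, while CXCL10 shows above the axis on D28 alone.

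The mean on D28 was 23.6 ± 28.0 CPM (SD, n = 2) for CCL2 and 2.87 ± 2.43 CPM for CXCL10, so in both genes the spread between replicates was about as large as the mean. On D45 CCL2 averaged 12.7 ± 6.86 CPM. Replicate A of D28 held 11.4 times the CCL2 level of replicate B and 3.98 times its CXCL10 level. On D45 the order turned and replicate B held 2.23 times the CCL2 level of replicate A.

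Within D28 and within D45 the make-up of the libraries moved with the CCL2 level. COL1A1, the fibrillar collagen chain made by fibroblasts, was detected in 16.1% and 2.9% of the cells of D28 A and B, and in 6.23% and 18.4% of those of D45 A and B, in the same order as CCL2 on both days. Across these days the order differed. D45 B had the largest share of cells with COL1A1 but less CCL2 (17.6 CPM) than D28 A (43.4 CPM). In D11 A and B, where CCL2 was at or near 0, COL1A1 was detected in 1.4% and 0.747% of cells. When cells were split by which of CORIN, STMN2, AQP4 and COL1A1 they held and the 7 resulting groups were given equal weight in both replicates, the D28 ratio of A to B came to 4.32 with the make-up of B and 3.19 with that of A, against 11.4 unadjusted. With 5 ranges of COL1A1 UMIs as the groups, a choice made after seeing the data, it came to 3.61 and 2.09. On D45 the ratio of A to B rose from 0.448 to 0.957 and 0.839 with the marker groups. For CXCL10 the same weighting left the D28 ratio at 4.52 and 3.47. Part of the CCL2 difference on D28 thus remained at equal make-up, while the D45 replicates then lay close together. Whether the make-up of a library set its CCL2 level was not tested.

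Cells with COL1A1 carried most CCL2. They held 85.2% and 70.7% of its UMIs in D28 A and B and 77.5% and 82.7% in D45 A and B, at 156, 57.2, 49.9 and 47.0 CPM. In cells where COL1A1 was the sole marker detected of the 4, the level was 278, 146, 61.1 and 92.1 CPM, and 25.5%, 11.9%, 6.92% and 11.4% of these cells had a CCL2 UMI. Requiring at least 3 of 6 fibroblast markers (COL1A1, COL1A2, COL3A1, LUM, DCN and PDGFRA) kept 84.6%, 75.9% and 71.5% of the CCL2 UMIs in D28 A, D45 A and D45 B, but 26.4% in D28 B. In D28 A these cells held 126 CPM. The 105 cells there with 3 of 6 astrocyte markers held 119 CPM, and the 37 with 3 of 6 mural markers held 128 CPM. In D28 B, D45 A and D45 B the fibroblast group held 24.1, 74.3 and 51.1 CPM. The astrocyte group held 6.86, 4.68 and 12.6 CPM there, and the mural group 19.2, 3.52 and 14.7 CPM. A cell may count in more than 1 group. STMN2, a tubulin-binding protein of neurons, was found in 68.5% to 74.8% of all cells of the D28 and D45 libraries and in 60.0% to 69.0% of their CCL2-positive cells, so its detection did not set neurons apart from the other cells.

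Cells with STMN2 alone were taken as a background for a chemokine of stromal cells. They held CCL2 at 7.4, 1.56, 0.843 and 2.75 CPM in D28 A, D28 B, D45 A and D45 B, and 3.55%, 0.472%, 0.294% and 0.923% of them had a UMI, at a median depth of 4473.5, 7316.5, 2733 and 3591.5 UMIs per cell. The cells with COL1A1 alone were deeper in each library, with medians of 9169, 14473, 10074.5 and 9247 UMIs. The CPM values, which depth does not raise, were far apart in each library. Against COL3A1, another fibroblast collagen, the STMN2-alone cells held more CCL2 than the COL1A1-alone cells did, with 278.5, 363, 93.9 and 94.5 CCL2 UMIs per 1000 COL3A1 UMIs against 193, 144, 37.7 and 38.0. The grouping left cells with COL1A1 out of the first group and required COL1A1 in the second. That choice can itself shift COL3A1, so this contrast cannot tell free RNA from expression. How much of the STMN2-alone signal was RNA free in the droplets was not tested. Cells with CORIN, a protease of the floor plate, and none of the other 3 markers held 6.88 CPM in D28 A and 0.321 CPM in D28 B, close to or under the STMN2 background. Per 1000 COL3A1 UMIs these CORIN-alone cells held 176.5 and 29.9 CCL2 UMIs on D28, under the COL1A1-alone cells. On D45 they held 1 and 0 CCL2 UMIs. Cells with AQP4 alone, the water channel of astrocytes, were 16 and 9 on D28 and 422 and 551 on D45, where they held 4.07 and 15.9 CPM. These values lay above the STMN2-alone cells of their own library. Cells with none of the 4 markers, which were shallow (medians of 703, 1986.5, 949 and 1020.5 UMIs), held 23.6, 2.21, 7.85 and 3.54 CPM, so that in D45 A the AQP4-alone level was below theirs and in D45 B above it.

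**Figure D2:**
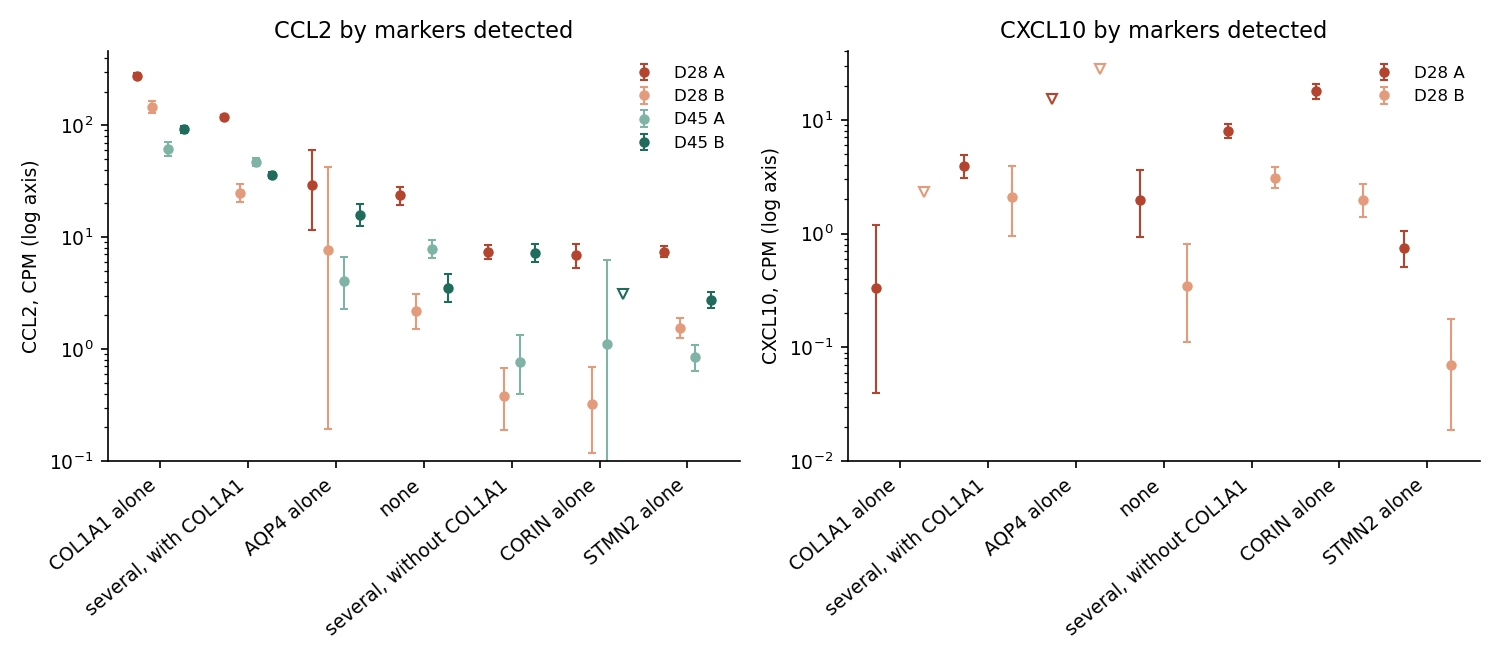
Level of CCL2 (left) and CXCL10 (right) in CPM, on log axes, in cells grouped by which of COL1A1, AQP4, CORIN and STMN2 had at least 1 UMI, with 1 colour per library. Points are the sums over a group of cells with 95% Poisson intervals, and open triangles give the upper bound where no UMI was counted. CCL2 is highest in cells with COL1A1 alone in all 4 libraries, while CXCL10 on D28 is highest in cells with CORIN alone (17.9 CPM in A) or with several markers but no COL1A1 (3.11 CPM in B).

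Across cells with rising COL1A1, the CCL2 level climbed and then fell. In D28 A it was 8.41 CPM in cells without COL1A1, 30.5 with 1 UMI, 118 with 2 to 4, 268 with 5 to 19 and 225 with 20 or more. Cells with 5 to 19 COL1A1 UMIs also had the highest level in D28 B (234 CPM), D45 A (105 CPM) and D45 B (173 CPM). With 20 or more COL1A1 UMIs the level was 51.9, 73.9 and 37.7 CPM in those libraries, below the 5 to 19 range by more than the counting intervals. Those intervals do not cover the spread between cells. In D28 B the 256 CCL2 UMIs of the 5 to 19 range came from 14 cells and the 54 above it from 8. The share of cells with a CCL2 UMI peaked in the same range in D28 B, D45 A and D45 B (20%, 14.3% and 22.8%), but in D28 A it was 36.9% there and 41.6% in the deeper cells above it.

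**Figure D3:**
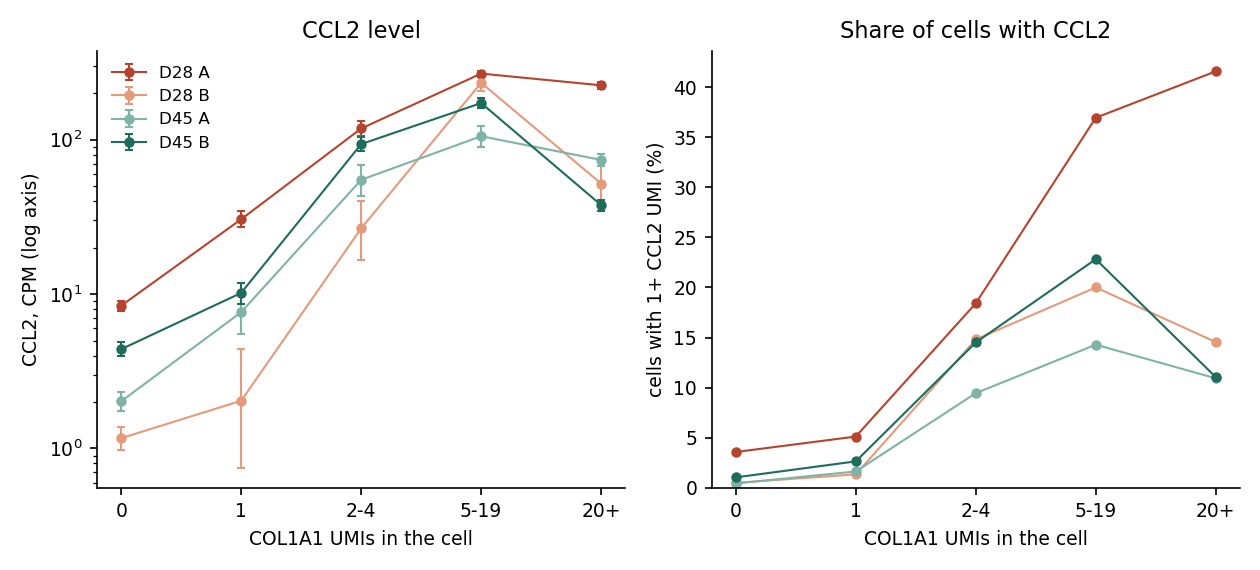
CCL2 level in CPM (left, log axis, 95% Poisson intervals) and share of cells with at least 1 CCL2 UMI in percent (right) against the number of COL1A1 UMIs in the cell. Each line is 1 library of D28 or D45. All 4 lines on the left peak at 5 to 19 COL1A1 UMIs, at 105 to 268 CPM.

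A few cells held most of the CCL2. Cells with 10 or more CCL2 UMIs numbered 106, 9, 21 and 61 in D28 A, D28 B, D45 A and D45 B and held 69.4%, 62.3%, 68.8% and 58.9% of the UMIs of their library. The single highest cell held 174, 79, 79 and 70 UMIs. Of these cells, 97, 1, 20 and 48 had at least 3 fibroblast markers. The replicate B library of D28 again stood apart, with 1 of 9 such cells by the panel although 7 of the 9 held COL1A1. No cell with at least 3 of 6 microglia and macrophage markers (PTPRC, CSF1R, CX3CR1, AIF1, SPI1 and TYROBP) carried CCL2, but these cells numbered 3, 5, 2 and 7, and TYROBP itself had 0 to 3 UMIs per library.

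To see what else marked the CCL2-positive cells, each was set beside a CCL2-negative cell of the same library with the same pattern of the 4 markers and the nearest total UMI count, and the sums over 894, 100, 166 and 459 such pairs were compared across the 4 libraries with edgeR's quasi-likelihood test. A cell without a CCL2 UMI may still express the gene at low level. Of the positive cells 561, 57, 92 and 226 held a single CCL2 UMI. In D28 A 264 of the 894 were STMN2-alone cells, the group taken above as a background. How far RNA free in the droplets shaped the 2 sides was not tested. Of 14007 genes tested, 658 (4.7%) were higher in CCL2-positive cells and 556 (3.97%) were lower, at an adjusted p below 0.05. The largest rises among named genes that rose in all 4 libraries included APOA1, CDH19, OLFML2A, SCN7A, COL15A1, NPY, DHH, P2RX7 and CYP1A1. APOA1, the main protein of high-density lipoprotein, stood at 282, 412, 133 and 398 CPM in the positive cells of D28 A, D28 B, D45 A and D45 B and at 43.0, 40.3, 2.79 and 30.9 CPM in their negative partners (log2 fold change 3.49 ± 0.26 SE, adjusted p = 0.000952 by edgeR).

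CDH19, SCN7A and DHH are known from Schwann cells and their neural crest precursors, where CDH19 is an adhesion protein, SCN7A a sodium channel and DHH a hedgehog ligand. CDH19 stood at 13.9, 41.5, 61.4 and 91.7 CPM in positive cells against 1.19, 0, 3.26 and 13.2 CPM in negative cells. The log2 fold changes were 3.45 for CDH19, 3.21 for SCN7A and 2.90 for DHH. In all 4 libraries the positive cells held more of each of these genes. NPY, a neuropeptide, stood at 144, 212, 522 and 657 CPM against 18.7, 12.2, 77.2 and 108 CPM (log2 fold change 2.99). P2RX7, an ATP-gated channel known from immune and glial cells, rose by 2.78 and CYP1A1, a target of the aryl hydrocarbon receptor, by 2.77 on the log2 scale.

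Among the listed genes of inflammatory signalling, those that passed were higher beside CCL2. Of 15 genes of the NF-kappaB pathway and its targets that were tested, 7 were higher and none was lower in CCL2-positive cells, with a median log2 fold change of 0.80 against 0.01 over all genes tested. They were TNFAIP3 (log2 fold change 1.98) and NFKBIA (1.52), both inhibitors of the pathway, RELB (1.22) and REL (0.86), which are subunits of the factor, the adhesion molecule VCAM1 (1.25), the cytokine IL18 (1.11) and the growth factor CSF1 (1.08). Of 14 immediate early genes 6 were higher, with EGR1 at 1.02, FOS at 0.83 and NR4A1 at 0.83. Of 29 interferon-stimulated genes 3 were higher, RSAD2 (4.73), MX2 (2.48) and IFIT1 (1.08), and RSAD2 was too low to be tested without either D28 library, as was MX2 without replicate A. Without replicate B of D28, MX2 (2.11) and IFIT1 (1.17) kept their size and did not pass, and without replicate A IFIT1 (0.71) did not. IFIT1 (1.015) did not pass without replicate A of D45 either, nor did MX2 (2.49) without replicate B of D45. Of 19 interferon genes, receptors and sensors, IFNGR2 alone was higher (0.72), a share near the 4.7% of all genes called higher. The medians of the immediate early, interferon-stimulated and interferon pathway lists were 0.76, 0.25 and 0.26, against 0.01 over all genes tested. Leaving out replicate A or replicate B of D45 left 2 NF-kappaB genes past the threshold in either case, and 0 or 1 immediate early genes.

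Among other chemokines, CCL11, which draws eosinophils, was higher beside CCL2 with a log2 fold change of 2.25 ± 0.36 (adjusted p = 0.00952 by edgeR). CXCL14 and CXCL12 were higher by 0.77 and 0.53. Of the neuron panel 5 of 6 genes were lower, STMN2 by 0.94 on the log2 scale, although the pairs had been matched on the presence of STMN2. Of the fibroblast panel 4 of 6 were higher, COL3A1 by 0.94. STMN2 and COL1A1, counted in these 2 panels, are markers by which the carriers of CCL2 had been described. Matching on presence leaves their amount free, so their shifts repeat that description and are not separate support. Of the astrocyte panel GFAP and SLC1A3 were higher and AGT lower, of the floor plate panel NTN1 was lower, and of the endothelial panel CLDN5 was higher. None of 4 chemokine receptors, 2 microglia and macrophage markers or 4 mural markers tested passed. CCL11 and CXCL12 did not pass with DESeq2. Leaving out any 1 of the 4 libraries ended the call of CXCL12, leaving out D28 A that of CCL11 (adjusted p = 0.0583 by edgeR) and leaving out D45 A that of CXCL14 (adjusted p = 0.0614). The largest falls were COL11A2, listed at 0 in the positive cells of all 4 libraries, FRMPD2 (fell by 3.44), NEUROD1 (fell by 2.93), and MOG and MAG, proteins of oligodendrocyte myelin, which fell by 3.24 and 2.75. The value of MAG was -4.18 without replicate A of D45 and -1.64 without replicate B, and that of MOG -2.50 without replicate B. FRMPD2 and NEUROD1 did not pass with DESeq2 or without replicate A of D45, where FRMPD2 was at -1.76.

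**Figure D4:**
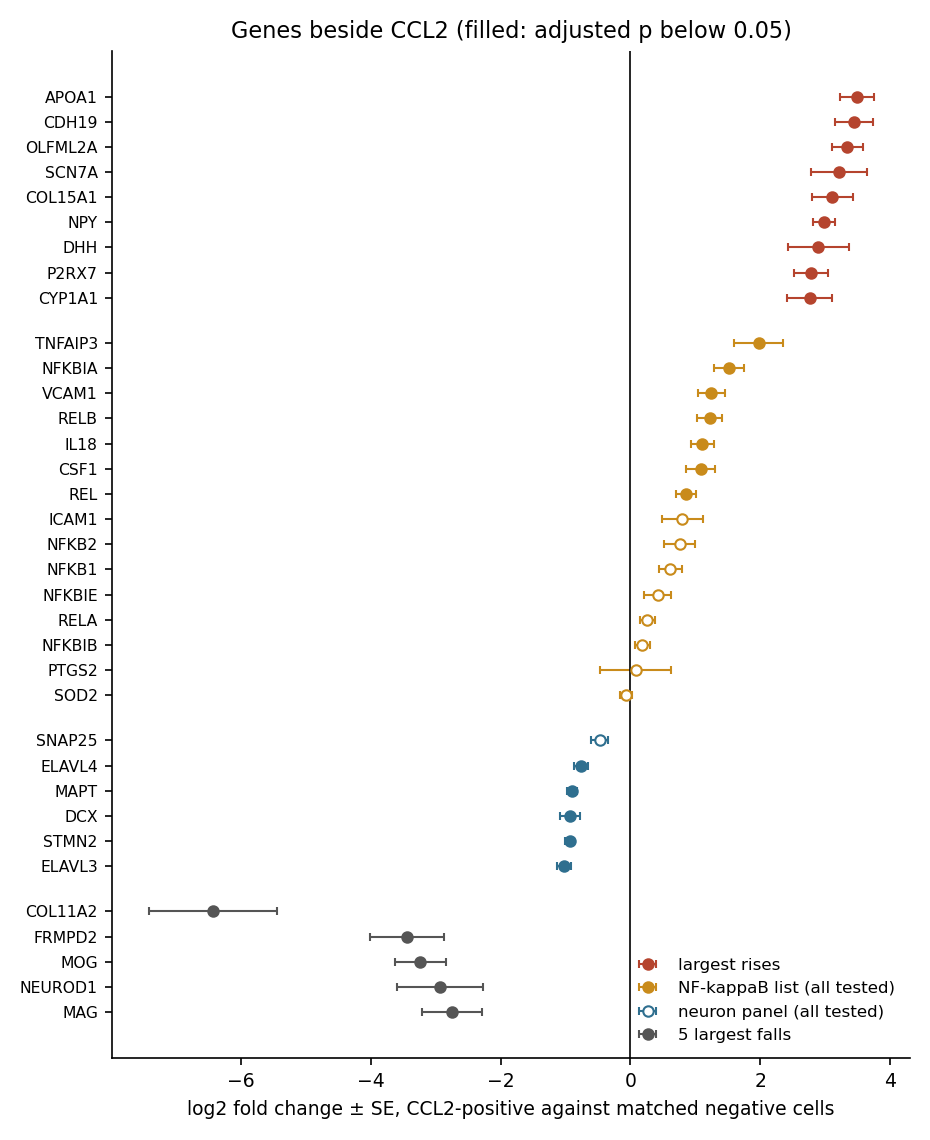
Log2 fold change with its standard error for genes in CCL2-positive cells against matched CCL2-negative cells of the same library, over 4 libraries. Filled points passed an adjusted p of 0.05 in edgeR, open points did not, and the value of COL11A2 is a model estimate since its positive cells held no UMI. Of the NF-kappaB list 7 of 15 points are filled, all to the right of 0.

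Matching on 4 markers cannot make the 2 sides the same mix of cells. A fit within cells holding at least 3 fibroblast markers, matched on total UMIs and added after seeing the data and limited to 3 libraries because D28 B had 17 such positive cells, called 61 genes higher and 52 lower. Of the largest rises named above, all but DHH passed there too, and DHH did not reach the threshold (adjusted p = 0.0586 by edgeR). NFKBIA, VCAM1 and CCL11 (3.11) passed as well. The other NF-kappaB genes named above did not pass there, with TNFAIP3 at 2.00, IL18 at 1.33, RELB at 1.32, CSF1 at 1.09 and REL at 0.48. CXCL14 (0.24), CXCL12 (0.525) and COL3A1 (1.00) did not pass either. No immediate early gene passed there, although the log2 fold changes of EGR1 (1.00), NR4A1 (0.85) and FOS (0.78) were close to those over all matched pairs, nor did IFIT1 (1.07), and RSAD2 and MX2 were too low to be tested. Without replicate A of D45 the main comparison called 310 genes and without replicate B of D45 it called 340, against 1214 with all 4 libraries.

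CDH19 was then used, after its values were seen, to split the COL1A1-positive cells, as a description. As CDH19 was picked for its rise beside CCL2 in these libraries, a higher CCL2 level in cells with CDH19 was built in. Cells with both CDH19 and COL1A1 numbered 29, 16, 51 and 229 in D28 A, D28 B, D45 A and D45 B. They held CCL2 at 1225, 809, 273 and 442 CPM, against 132, 21.1, 40.3 and 20.3 CPM in cells with COL1A1 and no CDH19. A CCL2 UMI was found in 65.5%, 56.2%, 37.3% and 56.8% of them, at median depths of 21257, 17093, 10666 and 9812 UMIs per cell. This small group supplied 45.8% of all CCL2 UMIs in D28 B and 49.2% in D45 B, but 15.1% in D28 A and 17.5% in D45 A. Cells with CDH19 and no COL1A1 held 107, 0.522, 31.8 and 47.4 CPM, so the level was highest in the cells with both in each of these libraries. On D11 such cells numbered 1273 in replicate A and 635 in replicate B and held no CCL2 UMI. In replicate A of both days most CCL2 came instead from COL1A1-positive cells without CDH19, with 70.2% of UMIs in D28 A and 60.0% in D45 A. Doublets were not called, and their part in cells holding both markers was not tested.

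CXCL10 sat in other cells. On D28, cells with CORIN held 90.4% of its UMIs in replicate A and 93.8% in replicate B, at 11.08 and 2.77 CPM. At least 3 of 6 floor plate markers (CORIN, SHH, NTN1, SPON1, FOXA1 and FERD3L) were found in 22.0% and 30.8% of cells. These held 90.8% and 98.6% of the CXCL10 UMIs, at 9.0 and 2.24 CPM. The share of cells with a UMI did not show this in replicate A, where it was 0.489% in cells with CORIN (median depth 14285.5 UMIs) and 0.403% in cells with STMN2 alone (4473.5 UMIs). In replicate B it was 0.671% and 0.0404%. Cells with STMN2, which may also hold CORIN, were 74.8% and 69.6% of all cells in A and B. They held 48.4% and 70.3% of the CXCL10 UMIs. Cells with AQP4 held none, but they numbered 127 and 63, and the 95% Poisson intervals reach 1.69 CPM in replicate A and 3.27 CPM in replicate B, the latter above the level of cells with CORIN. Cells with COL1A1 held 15.7% and 6.21% of the CXCL10 UMIs, and 69 of the 77 UMIs in replicate A lay in 1 cell that had a single COL1A1 UMI.

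Nearly all CXCL10 came from a handful of cells. In replicate A, 52 of the 60 positive cells had 1 UMI and the other 8 held 89.4% of the total, and in replicate B 23 of 31 had 1 UMI and the other 8 held 84.1%. The 5 highest cells of replicate A held 181, 137, 69, 34 and 11 UMIs, and those of replicate B 81, 13, 13, 6 and 3. All 10 cells had CORIN and at least 3 floor plate markers, although the 2 highest cells of replicate A, with 181 and 137 CXCL10 UMIs, lay at that minimum of 3 markers, with 3 and 1 CORIN UMIs and none of FOXA1 or SHH. The third cell of replicate A, with 69 CXCL10 UMIs, was the one cell of the 10 among the 5% of cells with the most UMIs of its library. The difference of 3.98 times between the D28 replicates thus rested mostly on 5 cells in each library.

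The cells with 3 or more CXCL10 UMIs were rich in transcripts of interferon-stimulated genes. The summed list, compared over cells of at least 1000 UMIs, made up 8.04%, 8.56%, 0.854%, 2.78% and 3.99% of the UMIs of the 5 cells of replicate A, in the order above, and 4.67%, 2.90%, 1.61%, 2.65% and 3.41% in replicate B. Without CXCL10, floor plate panel cells had a median of 0.327% (range 0 to 7.82%, 3095 cells) and 0.265% (range 0 to 7.80%, 4220 cells). ISG15, a ubiquitin-like protein induced by interferon, reached 435 and 413 UMIs in the 2 highest cells of replicate A and 308 in the highest of replicate B, and was at 3 UMIs in the third cell of replicate A. The 2 highest CXCL10 cells of replicate A lay above the range of the floor plate panel cells without CXCL10, and the other 8 cells lay within the range of their library. CXCL10 belongs to the same family of responses but was not counted in the list. Cells with 1 or 2 CXCL10 UMIs had a median of 0.0894% in replicate A (30 cells), under the floor plate median, and of 1.18% in replicate B (25 cells), above it. IFNB1, the gene of interferon beta, had no UMI in any library. Of the 5 cells with 10 or more CXCL10 UMIs in replicate A none had 3 markers of microglia, endothelium or mural cells.

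**Figure D5:**
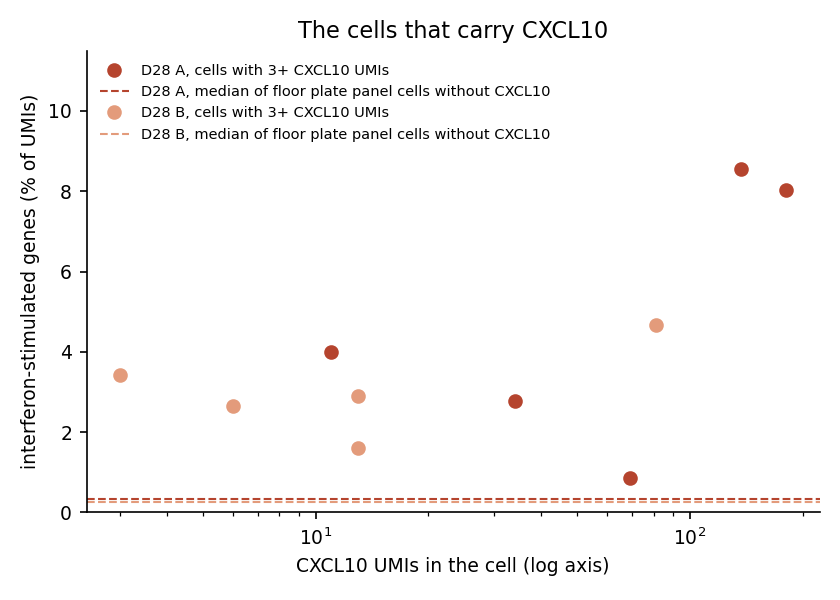
Share of a cell's UMIs from interferon-stimulated genes (percent) against its CXCL10 UMIs (log axis) for the 10 cells of D28 with 3 or more CXCL10 UMIs, coloured by replicate. Dashed lines are the medians of floor plate panel cells without CXCL10 in the same library (0.327% and 0.265%), which lie under all 10 points.

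The planned comparison of CXCL10-positive with matched negative cells needed at least 20 positive cells in at least 3 libraries, and only the D28 libraries reached 20, so no test was made. CCL2 and CXCL10 were both rare, and few cells held both. In D28 A 3 of the 60 CXCL10-positive cells had CCL2, 5% against 6.26% of all cells, which is a like share. None of the 31 CXCL10-positive cells of D28 B had CCL2, where 0.721% of all cells did. The D11 and D45 libraries had 0 to 2 CXCL10-positive cells each, too few to show an overlap, and none had CCL2. No cell held 10 or more UMIs of each.

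The receptors that read these ligands were almost absent. CCR2 had 1, 2, 4, 3, 5 and 2 UMIs in D11 A, D11 B, D28 A, D28 B, D45 A and D45 B, and CXCR3 had 0, 2, 1, 0, 0 and 0, so neither could be tested between days. The decoy receptor ACKR1, which binds many inflammatory chemokines without signalling, was at 1.11 and 1.31 CPM on D11, then 2.44 and 3.05 CPM at D28 and 1.89 and 1.69 CPM at D45. It was higher on D28 than on D11 (log2 fold change 0.92 ± 0.26, adjusted p = 0.0447 by edgeR), where 12.5% of 22192 genes were called higher and 10.6% lower. ACKR2, the scavenger of CC chemokines, held 2.58 to 3.49 CPM in all 6 libraries and did not pass in any of the comparisons of days. Of 13 receptors tested between D28 and D11, 2 were higher and 2 lower, near the shares of all genes. Their median log2 fold change was 0.07 against 0.03 over all genes. ACKR1 and ACKR4 were the higher ones, and CCR4 and CCRL2 the lower ones. Of these, CCR4 alone still passed when either library of D11 was left out.

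Other CC chemokines were also higher after D11. Of 9 CC ligands tested besides CCL2, 5 were higher on D28 than on D11 and none was lower, where 12.5% of all genes were called higher and 10.6% lower. Their median log2 fold change was 2.02 against 0.03 over all genes. The 5 higher ones were CCL11, CCL5, CCL4, CCL27 and CCL21, all below CCL2 in D28 A, where CCL21 was the highest of them at 4.08 CPM, but in D28 B CCL21 (5.23 CPM) stood above CCL2 (3.8 CPM). CCL21 (1.43 and 1.54 CPM) and CCL5 were already present on D11. Without replicate A of D11 none of them passed and without replicate B of D11 1 did. For CCL11 the D11 libraries gave 2 and 1 UMIs, those of D28 gave 167 and 15, those of D45 gave 31 and 138, and its CPM ordered the D28 and D45 libraries as CCL2 did. No CCL19 UMI was counted at D11, whereas 25 and 2 were found in the D28 libraries and 17 and 18 in those of D45. CCL5, an interferon- and NF-kappaB-responsive ligand of T cells and monocytes, went from 0.107 and 0.206 CPM to 1.36 and 0.897 CPM (log2 fold change 2.59 ± 0.48, adjusted p = 0.0112 by edgeR). CCL25, the thymic and gut ligand of CCR9, was present throughout at 25.6 and 28.0 CPM on D11, then 43.9 and 34.8 CPM at D28 and 34.8 and 31.6 CPM at D45, and was not called between any days. Up to 14 UMIs of CCL5 lay in a single CXCL10-rich cell.

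Between D45 and D28, where 4.47% of genes were called higher and 4.93% lower, CCL4 was the CC ligand called, at 0.169 and 0.334 CPM on D28 and 0.0676 and 0.0473 CPM on D45. Between D45 and D11, with 17.3% of genes called higher and 17.4% lower, 4 of 9 CC ligands were higher (CCL11, CCL5, CCL21 and CCL19). Of 5 CXC, CX3C and XC ligands tested besides CXCL10, 2 were higher on D28 than on D11, where 12.5% of all genes were. They were CXCL14 and CXCL12, by 5.4 and 3.74 on the log2 scale. CXCL12, the ligand of CXCR4, stood at 0.803 and 1.56 CPM on D11, then 30.4 and 5.32 CPM at D28 and 9.59 and 25.8 CPM at D45, and so ordered the D28 and D45 libraries as CCL2 did. Neither CXCL12 nor CXCL14 passed when a library of D11 was left out. CXCL14 had the highest CPM of the chemokines listed after D11, with 209 and 37.2 CPM on D28 and 247 and 431 CPM on D45. CXCL11, the closest relative of CXCL10, had 28 and 19 UMIs on D28 against 11 and 41 on D11.

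Many interferon-stimulated genes, like CXCL10, were higher on D28 than on D11 and lower again on D45, but not all returned to their D11 level. Of 31 tested, 21 were higher on D28 than on D11 and 19 were lower on D45 than on D28, where 12.5% and 4.93% of all genes were, with medians of 2.92 and -1.75 on the log2 scale. On D45 13 were still higher than on D11 and 2 were lower, with IFI6 at 7.52 and 5.98 CPM on D11, then 1175 and 1072 CPM at D28 and 197 and 308 CPM at D45. ISG15 stood at 358 and 378 CPM in D28 A and B, nearly equal, where CXCL10 differed 3.98 times. RSAD2 stood at 1.29 and 1.10 CPM on D28 and at or below 0.0338 CPM in the other libraries. Leaving out replicate A of D45 removed all 19 of the calls between D45 and D28, and leaving out replicate B of D45 left 5. Of 19 NF-kappaB genes, 4 were higher and 3 lower on D28 than on D11, not far from the 12.5% and 10.6% of all genes, with ICAM1 higher by 2.30 and TNF lower with a log2 fold change of -2.88. TNF had 0.0822 and 0.0833 CPM on D11 and 0.00936 and 0.0159 CPM on D28, where both values lie under the limit of 3 counts. Neither ICAM1 nor TNF passed when a library of D11 was left out. Of 23 interferon genes, receptors and sensors 10 were higher on D28 than on D11, and of 18 immediate early genes 5 were, with medians of 1.01 and 1.23 against 0.03 over all genes.

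The genes whose pattern was most like CCL2's, over 26 sums of cells (a library crossed with a marker found alone or with no marker) and 11807 genes, were DIO2 (Pearson's r 0.944), PCOLCE (0.939), PDLIM4 (0.934), MFAP4 (0.925) and COL14A1 (0.922). PCOLCE, MFAP4 and COL14A1 are parts or processors of the extracellular matrix and DIO2 activates thyroid hormone. For CXCL10 they were PIGK (0.841), NDN (0.839), TMEM59 (0.836), SPCS2 (0.829) and TSPAN3 (0.826), a pattern set by the few D28 sums that held CXCL10 at all. These correlations describe sums that share libraries and depth, and no test was attached to them. The sums were split by COL1A1 among other markers, and CCL2 was highest in cells with COL1A1 alone. The matrix genes most like CCL2 thus repeat that description and are not separate support.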

How the data were processed

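The kit was 10x GEM-X 3' v4. Cell Ranger and the Sscrofa11.1 genome were used by the authors for alignment and counting, and the deposited matrices hold raw UMI counts per gene and barcode (Seurat 4.3.0 is also named in the submitters' processing notes). The labels state 103310 cells, the files hold 104820 barcodes, and 102940 remained with 200 to 7000 detected genes and at most 10% mitochondrial UMIs. Of 30477 genes, 16266 were named in the files and 844 through the reference annotation. No doublet caller was run, and fits without the 5% of cells with the most UMIs were made instead. No columns of other samples were used.

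CPM is a gene's share of all UMIs of the cells summed, scaled to 1000000. Intervals (95%, exact Poisson or Clopper-Pearson) and limits for a count of 0 (3 counts) cover counting error only. Counts summed per library were tested with edgeR 4.0.16 (TMM, quasi-likelihood, Benjamini-Hochberg, threshold 0.05), all 6 libraries in 1 fit for days and library as a term for CCL2-positive cells. The 2 libraries of a day are called biological duplicates, and separate cultures are not stated, so p-values measure the spread between these libraries, which may be technical. CCL2 was left out of the comparison its own counts define. Alternatives were DESeq2 1.42.0, its size factors, no filter on low counts, the replicate letter as a block, other cell filters and matchings, and leaving out each library. On data simulated with a preset dispersion, the test of D28 against D11 recovered 30.3% of genes changed 2-fold and 93.8% of those changed 4-fold. That of CCL2-positive cells recovered 83.7% and 100%. The dispersion was not estimated from these libraries, so recovery in them may differ. A gene that did not pass between days may still have changed. Software was R 4.3.3 and python 3.11.15.

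The members, gene lists and marker panels were chosen with earlier results of these data known. Named genes were the members, up to 4 list members with the largest change per comparison of days, CCR2, CXCR3, ACKR1 and ACKR2, the 10 largest rises and 5 largest falls beside CCL2 with the same direction in every library, list members that passed there, the panel markers, and the 5 genes most alike over sums of at least 50 cells with a mean of at least 5 CPM. One of the largest rises is not reported here. CCL25, CXCL11 and IFNB1 were added after their values were seen.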

Additional observations from a re-analysis of the deposited data

Results flagged for a closer look

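Barcodes removed by the cell filter still held transcripts of the chemokines, above the limit that a count of 0 allows. CCL2 had 394 UMIs in the 170 barcodes removed from D28 replicate A and 137 in the 318 removed from D28 replicate B. On D45 the removed barcodes held 51 CCL2 UMIs in replicate A and 126 in replicate B. CXCL10 had 6 UMIs in the removed barcodes of D28 replicate B. With all deposited barcodes CCL2 stood at 44.6 and 4.58 CPM on D28 and at 7.47 and 17.4 CPM on D45, so the order of the libraries was the same.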

How the results depend on the processing

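Over the libraries left out in turn, the genes called ranged from 1112 to 10545 for D28 against D11 (5131 with all 6), from 0 to 10003 for D45 against D28 (2086) and from 2804 to 12286 for D45 against D11 (7687). The 0 came without replicate A of D45 in edgeR's test, where 3736 genes had an unadjusted p under 0.05 and no other tool was run, and without replicate B of D45 there were 64. For CCL2-positive cells the range was 310 to 1086 against 1214. A day then rests on 1 library, which is assumed to vary like the others. Among the settings that kept all libraries, DESeq2 called 4336 genes for D45 against D28. With unmatched negative cells 5131 genes were called in CCL2-positive cells, and with cells matched on total UMIs alone 2671. Within fibroblast panel cells 113 were called, of which 85 were among the 1214. With 2 or more CCL2 UMIs required of a positive cell 1351 were called, of which 935 were among the 1214. With the replicate letter as a block 3314 genes were called for D28 against D11 and 628 for D45 against D28. Letters did not pair the libraries: deviations of same-lettered libraries correlated at -0.321, 0.0485 and -0.196. None of the calls named in the text changed direction under the settings run, but CORIN, not called in CCL2-positive cells (log2 fold change 0.11), was at -1.95 within fibroblast panel cells (adjusted p = 0.0456 by edgeR). Of the repeats of the genes named in CCL2-positive cells 446 kept their side of the threshold and 116 lost it, and of those between days 642 kept it, 170 lost it and 2 gained it. The comparison for CXCL10-positive cells was not fitted, since 2 libraries had 20 positive cells or more and the plan required 3. A level under 3 counts per library could not be seen.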
